A study of Bos taurus with 7 samples.

Results

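Genes that mark nerve fibres, glia and synaptic vesicles were examined in the rumen epithelium of 7 Holstein calves. The 6 genes are S100B and SOX10, used as markers of Schwann cells and other glia, STMN2 and UCHL1, used as markers of neurons, GFRA3, a receptor subunit of sensory and sympathetic neurons, and SYNPR, a synaptic vesicle protein. All 6 are on the array, with 1 probe each among 15008 probes, and were found by the gene name the files give. They were selected on their differences between the feeding groups in earlier results from the same arrays. Those differences are therefore given below as a description without a p-value. How many members passed the test applied to all genes is also given, and nothing is read from that count.

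Total RNA of each calf was hybridised to an Agilent array of its own, in a single colour, giving 7 arrays. In the HAY group (n = 3, calves 9, 10 and 13) forage was provided, and in the CON group (n = 4, calves 8, 11, 12 and 14) it was not, and the design names a time of 3 weeks after weaning. The tissue is labelled rumen epithelium in every calf, and the series concerns forage, calf starter, rumen pH and adaptation of this epithelium around weaning. No age or treatment other than the feeding is given for the calves in the labels. The unit used below is the log2 signal minus the 75th percentile of the same array, so that 0 is a fairly bright probe and each unit is a 2-fold step. Between 81.5 and 84.6% of the spots were well above background on each array, a call made by the scanner software for each spot. The arrays shared 1 slide, with HAY in its row 1 and CON in its row 2, so an effect of the row and one of the feed cannot be told apart. The defining genes of stratified squamous epithelium on the marker list, KRT5, KRT14 and TP63, were well above background on all 7 arrays.

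The rumen wall is served by nerve fibres whose cell bodies lie in ganglia of the wall or outside it, so a piece of epithelium can hold axons and their Schwann cells but few or no neuronal cell bodies. SOX10 is the transcription factor that specifies and maintains Schwann cells and enteric glia, and melanocytes also express it. S100B is a calcium-binding protein of glia that is also found in dendritic cells, melanocytes and fat cells. STMN2 binds tubulin and takes part in axon growth, and UCHL1 is an abundant ubiquitin hydrolase of neurons. GFRA3 binds artemin and signals through the receptor tyrosine kinase RET. SYNPR, synaptoporin, is a membrane protein of synaptic vesicles in the synaptophysin family.

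Each gene was read by a single oligonucleotide of 60 bases, so the second part of each probe, bases 31 to 60, is shown to make plain what was hybridised. Capitals mark the letters AATAAA, the common polyadenylation signal.
S100B: agtgcccccagccttacttctgcattactg
SOX10: ccttcgacgtggccgagttggaccagtacc
STMN2: gtggatgccatgattgatgatgttcatttt
UCHL1: tgaacaaagtgctgacccggctgggggtcg
GFRA3: tctcctgtactcttaccttgattctgctct
SYNPR: tatctctttgaccttAATAAAgttattgca
The S100B probe lies at chr1:148010527-148010586, the SOX10 probe at chr5:110262812-110262871, the GFRA3 probe at chr7:51279682-51279741 and the SYNPR probe at chr22:37900574-37900633 of UMD_3.1, and the files write these 4 intervals in descending order. The STMN2 probe lies at chr14:45026614-45026673 and the UCHL1 probe at chr6:61796085-61796758, both in ascending order. The UCHL1 interval spans 674 bases for a probe of 60, so its sequence is split on the genome, while the other 5 intervals span 60 bases. The strand is not stated beyond that order, and exon and UTR annotation of this build was not used here. SYNPR was the only member whose probe holds AATAAA, which 9.51% of all 15008 probes hold in the direction given. None of the 6 holds it on the other strand, where 3.40% of all probes do. The GC content of the 6 probes ran from 35.0% for SYNPR to 55.0% for SOX10 and UCHL1.

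Detection split the 6 genes into 3 kinds. S100B, STMN2, UCHL1 and GFRA3 were well above background on all 7 arrays. SYNPR was well above background on the 3 HAY arrays and on 2 of the 4 CON arrays. SOX10 was well above background on none, so the transcription factor that defines the glial lineage did not reach this call with this probe. A looser call of the same software, positive and significant against background, was given for SOX10 in HAY calf 9 and CON calf 8 only. SYNPR had that looser call in every calf.

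For SOX10 the unprocessed spot brightness in HAY was 58.9, 56.7 and 54.2 intensity units (calves 9, 10 and 13). In CON it was 57.1, 54.3, 53.4 and 53.9 (calves 8, 11, 12 and 14). The local background around these spots was between 52.0 and 56.0 units, so the spot was 0.969 to 1.13 times as bright as its surroundings in every calf. No level and no difference between groups is given for it.

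S100B was detected far above background in every calf. In HAY its log2 signal was -0.88, -0.11 and 0.014 (calves 9, 10 and 13), and in CON -1.22, -1.01, -0.83 and -0.84 (calves 8, 11, 12 and 14). HAY calves 10 and 13 stood apart from the other 5 calves, while HAY calf 9 lay inside the CON range, so the groups overlapped. HAY had a mean of -0.33 ± 0.49 (SD, n = 3) and CON one of -0.98 ± 0.18 (SD, n = 4), which differ by 0.65 (SE 0.24), or 1.57-fold. The spot was 18.3 to 44.7 times as bright as its local background.

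STMN2 was dim and varied between calves of the same group. In HAY its log2 signal was -4.61, -6.04 and -5.59 (calves 9, 10 and 13), and in CON -5.62, -5.67, -6.58 and -6.67 (calves 8, 11, 12 and 14). HAY calf 9 was the highest, HAY calf 10 lay below CON calves 8 and 11, and the groups overlapped. The difference in means was 0.72 (SE 0.41), and it was 0.32 without HAY calf 9. With normexp, a background correction that adds an offset and shrinks differences of dim probes, it was 0.12.

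UCHL1, the other neuronal marker, differed between the groups by less than its spread in the scaled log2 signal. In HAY its log2 signal was -5.41, -5.49 and -5.54 (calves 9, 10 and 13), and in CON -5.55, -5.69, -5.19 and -5.59 (calves 8, 11, 12 and 14). On this scale the highest calf was CON calf 12 and the lowest CON calf 11, so all HAY calves lay inside the CON range. The unprocessed spot brightness did not overlap, at 100 to 107 units in HAY and 93.4 to 96.8 in CON. Nor did the background-subtracted signal before scaling, at 41.9 to 47.0 units in HAY and 36.2 to 41.7 in CON. Whether the groups overlapped thus depended on the scaling of the arrays. The difference in scaled log2 signal was 0.02 (SE 0.15), and its sign turned in 4 of 16 alternative analyses. Over all 7 calves the signal ranged over 1.41-fold, against 4.16-fold for STMN2. UCHL1 was dim too, with a spot 1.64 to 1.94 times as bright as its local background.

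GFRA3 had a narrow range. In HAY its log2 signal was -4.53, -4.35 and -4.35 (calves 9, 10 and 13), and in CON -4.70, -4.57, -4.55 and -4.65 (calves 8, 11, 12 and 14). Every HAY calf was above every CON calf, although HAY calf 9 and CON calf 12 were nearly level. The difference was 0.21 (SE 0.12), or 1.15-fold, and 0.068 with normexp. The unprocessed spot brightness overlapped between groups, at 147 to 179 units in HAY and 125 to 148 in CON.

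SYNPR had the largest difference of the 5 genes that were tested. In HAY its log2 signal was -4.46, -5.09 and -4.68 (calves 9, 10 and 13), and in CON -7.18, -8.05, -6.75 and -8.10 (calves 8, 11, 12 and 14). All HAY calves were above all CON calves, and the gap between the groups was wider than the range within either of them. CON calves 11 and 14 are the 2 arrays where the probe was not well above background. The difference of the values as measured was 2.78 (SE 0.36). With CON calves 11 and 14 set to the lowest signal counted as above background on their arrays, a choice made after seeing the data, it was 2.40, or 5.27-fold.

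The size of the SYNPR difference depends on how the background of a dim spot is removed. The unprocessed spot brightness in HAY was 142, 112 and 141 units (calves 9, 10 and 13), while in CON it was 66.1, 59.7, 65.1 and 59.6 (calves 8, 11, 12 and 14). Around the spots the local background was 49.5 to 62.0 units in HAY and 48.0 to 54.0 in CON. The spot was thus 1.81 to 2.86 times its surroundings in HAY and 1.13 to 1.29 times in CON, with no overlap. With normexp the log2 difference was 0.64. It was between 2.58 and 3.03 when each calf was left out in turn.

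**Figure D1:**
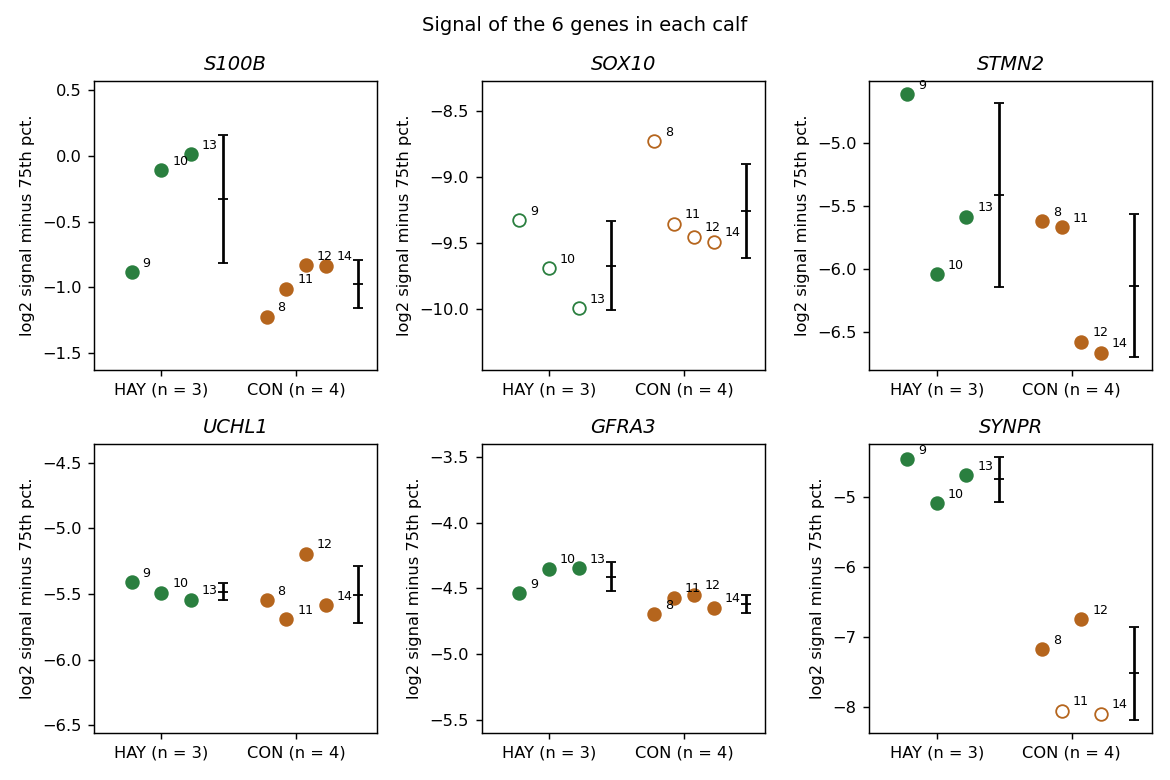
Log2 signal minus the 75th percentile of the array for each of the 6 genes (vertical axis, own range per panel) in HAY and CON calves, with calf numbers beside the points. Open points were not well above background, and bars are the group mean ± SD. SYNPR separates the groups, UCHL1 does not on this scale, and SOX10 has only open points.

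**Figure D2:**
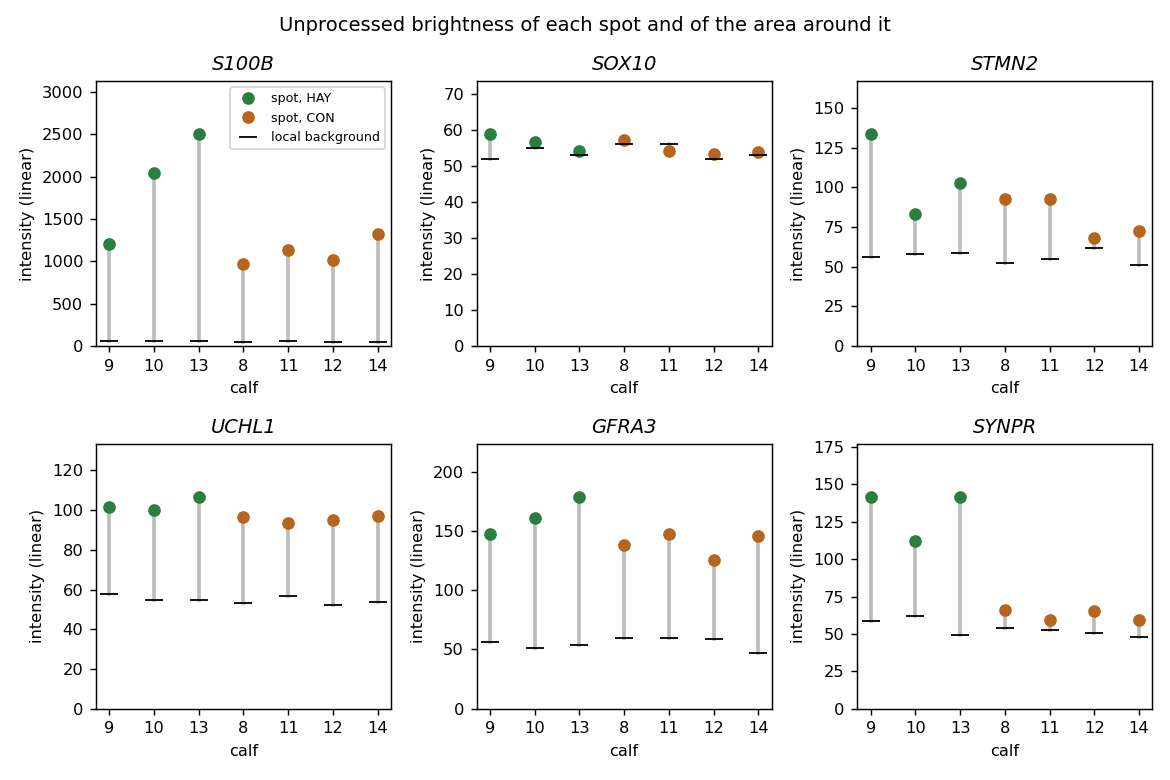
Unprocessed spot brightness (points, linear intensity from 0) and local background (dashes) for the 6 genes in the 7 calves, HAY calves 9, 10 and 13 first. The SOX10 spots lie close to the background in every calf, and the SYNPR spots rise clearly above it in the 3 HAY calves.

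All 5 members that passed the filter (a call above background on 3 or more arrays) had a higher mean in HAY, where 54.5% of the 12570 genes tested did. In 2 of the 5, GFRA3 and SYNPR, every HAY calf lay above every CON calf, which held for 6.54% of the 12561 tested genes with no outlier spot left out on any array. The groups did not overlap, in either direction, in 11.8% of those genes. None of the 5 passed limma with Benjamini-Hochberg adjustment at 0.05, where 0.00796% of all genes, or 1 gene, did. Higher in HAY at an unadjusted p under 0.05 were 6.79% of all genes. Because the members were chosen with this contrast known, nothing is read from these counts.

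The next question was whether the members went up and down together from calf to calf, as a single cell source would require. Since a shared group difference alone makes genes correlate, the group mean was first removed from each value. The 5 measured members gave 10 pairs, of which 4 had a positive and 6 a negative Pearson r over the 7 calves, with a median of -0.091 and a range from -0.85 to 0.87. The signs were thus mixed. With a single array per calf, differences between calves and measurement noise of dim spots could not be separated. Nothing about a cell source is therefore read from the signs. No pair passed after adjustment over the 10 pairs (lowest adjusted p = 0.208, exact two-sided permutation within groups). With 3 and 4 calves such a permutation cannot go below p = 0.00694.

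S100B and GFRA3 had the highest r. Relative to their group means both were lowest in HAY calf 9 and next lowest in CON calf 8, at -0.56 and -0.25 for S100B and -0.12 and -0.080 for GFRA3. Pearson r was 0.87 and Spearman rho 0.86, with exact permutation p = 0.0625 for r and 0.0278 for rho and adjusted p = 0.208 and 0.278. The relation rests on these 2 calves, since r was -0.23 without them.

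S100B and STMN2 had the lowest r. STMN2 was highest in HAY calf 9, 0.80 above its group mean, and next highest in CON calf 8, 0.52 above it, the same 2 calves in which S100B was lowest. Pearson r was -0.85 and Spearman rho -0.75, with exact permutation p = 0.0417 for r and 0.139 for rho and adjusted p = 0.208 and 0.463, with r = -0.59 without these 2 calves. It lay between -0.93 and -0.74 when each calf was left out in turn. In these 7 calves S100B and STMN2 thus tended to opposite orders, without passing the adjustment. This did not extend to UCHL1, the other neuronal marker, which had an r of -0.040 and a rho of -0.036 with S100B.

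UCHL1 and SYNPR had a positive r, with CON calf 12 highest in both, at 0.31 and 0.77 above the CON mean. Pearson r was 0.82 and Spearman rho 0.79, with exact permutation p = 0.0417 for r and 0.0972 for rho and adjusted p = 0.208 and 0.463. Without CON calves 11 and 12, which lay farthest from the median of UCHL1, r was 0.49. In CON calves 11 and 14 the SYNPR probe was not well above background, so its order among the lowest calves is uncertain. The array of CON calf 12 had the lowest median signal before scaling, 182 units against 215 to 241 on the others. Before scaling, the background-subtracted UCHL1 signal was 41.7 units in CON calf 12 and 36.2 to 40.8 in the other CON calves. The part of array brightness in this r was not tested. The 2 neuronal markers STMN2 and UCHL1 had an r of -0.24 and a rho of 0.036 (exact permutation p = 0.792 and 1, adjusted p = 0.931 and 1), and r was -0.59 without HAY calf 9 and CON calf 8. Of the 10 pairs, 6 changed the sign of r without the 2 calves farthest from the median.

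**Figure D3:**
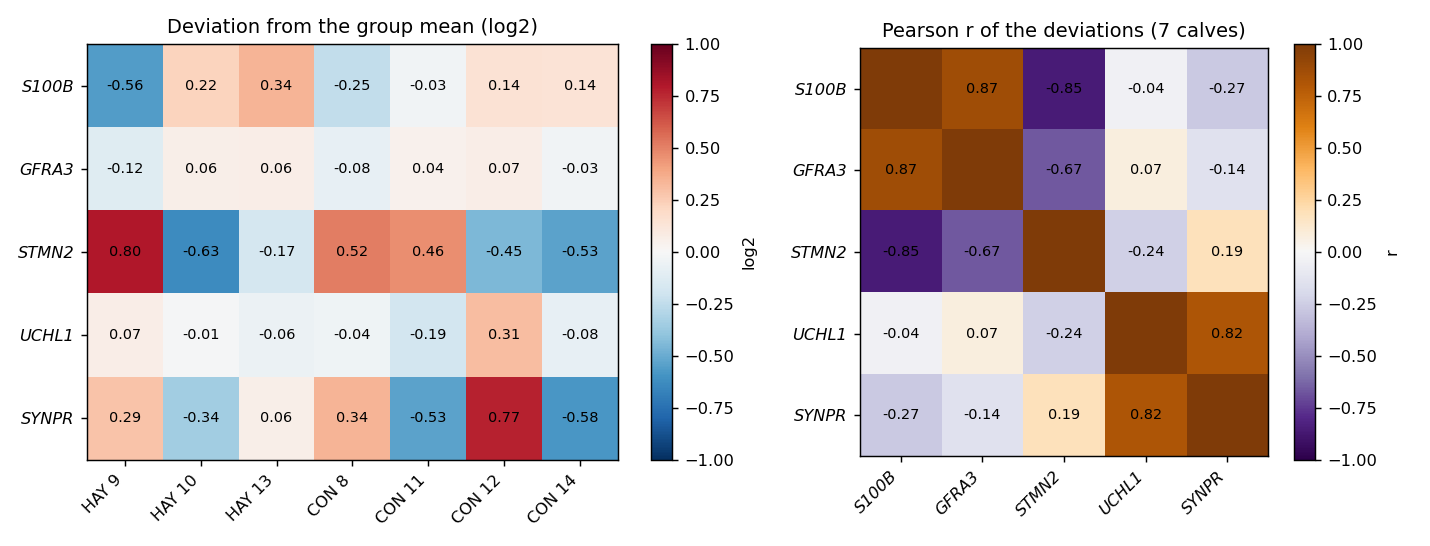
Left, deviation of the log2 signal from the group mean for the 5 measured genes (rows) in each calf (columns). Right, Pearson r of these deviations for each pair over the 7 calves. The 3 largest r in size are 0.87 (S100B and GFRA3), -0.85 (S100B and STMN2) and 0.82 (UCHL1 and SYNPR). None passed adjustment, and the first was -0.23 without HAY calf 9 and CON calf 8.

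For each measured member the 2 genes of most similar pattern were taken by Pearson r of log2 signal over the 7 calves, among 11876 genes with a symbol. A high r can arise by the search itself among so many genes, and these are given as a description. S100B was most similar to SLC16A10, an aromatic amino acid transporter gene (r = 0.994), and UQCRB, a subunit gene of respiratory complex III (r = 0.993). With normexp the r of SLC16A10 was 0.11. STMN2 was most similar to PYGB, brain-type glycogen phosphorylase (r = 0.979), and NPEPPS, a cytosolic aminopeptidase (r = 0.978). GFRA3 was most similar to SLC46A1, a folate transporter gene (r = 0.990), and LRRC24 (r = 0.988). UCHL1 was most similar to WDR47 (r = 0.983) and DNMBP, which binds dynamin (r = 0.960). SYNPR was most similar to CDR2L (r = 0.988) and ENTPD5, a nucleotidase of the endoplasmic reticulum (r = 0.987), and with normexp the r of CDR2L was 0.51. No other member and no defining nerve or glia marker was among these 10 genes.

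Other genes of peripheral glia gave a mixed picture. Of 25 listed glia genes on the array, 11 were tested, 8 with higher and 3 with lower values in HAY, and none passed limma over all genes (lowest adjusted p = 0.297). The median difference was 0.16, against 0.03 over all 12570 genes. Among the defining markers, MBP, a protein of myelin, was well above background on all 7 arrays, as was ERBB3, the neuregulin receptor that epithelia also express. MBP differed by 0.41 (SE 0.60), or by -0.26 without HAY calf 13. ERBB3 differed by 0.14 (SE 0.16). CDH19, a cadherin of Schwann cell precursors, was well above background on 1 CON array only, and GFAP, an intermediate filament of glia, on none. PMP22, another myelin protein, was lower in HAY (difference -0.99, SE 0.35, adjusted p = 0.297). GJB1, the connexin of Schwann cells that epithelia also hold, was higher (0.38, SE 0.14, adjusted p = 0.307), and so was MAL (0.58, SE 0.23, adjusted p = 0.328). With normexp PMP22 differed by -0.57. None of these 3 passed the adjustment. The MAL probe was bright, with a mean of 6.53 in HAY and 5.94 in CON, above KRT5 (5.75 and 5.85). The cell source of the MAL signal was not tested.

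Neuronal genes were likewise split. Of 30 on the array 21 were tested, 13 with higher and 8 with lower values in HAY (median 0.18), and none passed limma over all genes. The neurofilament genes NEFL and NEFM and the RNA-binding protein gene ELAVL4 were not well above background on any array. GAP43, a protein of growing axons, PRPH, the intermediate filament of peripheral neurons, and TUBB3, neuronal beta tubulin, were well above background on all 7. GAP43 differed by 0.30 (SE 0.19), PRPH by 0.26 (SE 0.23) and TUBB3 by 0.58 (SE 0.71). When each calf was left out in turn these ranged from 0.19 (without HAY calf 13) to 0.49 (without HAY calf 9) for GAP43, from 0.089 (without CON calf 12) to 0.39 for PRPH, and from 0.089 (without CON calf 8) to 1.18 (without CON calf 14) for TUBB3. STMN4, a paralog of STMN2, was 0.62 higher in HAY (SE 0.21, adjusted p = 0.290), without overlap between groups, and did not pass the adjustment. CHL1, an adhesion molecule of axons, had a difference of -1.60 (SE 0.69, adjusted p = 0.357) and in HAY it was measured on 2 of 3 arrays. The CHL1 difference was -0.85 without HAY calf 13 and -0.48 with normexp. Of the stathmin and ubiquitin hydrolase paralogs, 5 of 6 were tested, none passed limma (lowest adjusted p = 0.290), and the median difference was 0.11.

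The partners of GFRA3 were mostly not measurable. RET, the signalling receptor, was not well above background on any array, and ARTN, artemin, the ligand of GFRA3, on 1 CON array only. Of the 10 genes of this ligand and receptor family, 8 were tested, 5 with higher and 3 with lower values in HAY (median 0.33), and none passed limma. NRTN, neurturin, and its receptor GFRA2 differed by 0.63 (SE 0.26, adjusted p = 0.352) and 0.85 (SE 0.36, adjusted p = 0.354). Lower in HAY were GFRA1, the receptor of GDNF, by -2.02 (SE 0.85, adjusted p = 0.354), and GFRA4, by -1.32 (SE 0.72, adjusted p = 0.449), both measured on all 7 arrays and named after their values were seen. Left-out calves moved GFRA4 to as little as -0.68 (without HAY calf 13), and NRTN to 0.41 (without CON calf 8). GFRAL, the receptor of GDF15, was well above background on the 3 HAY arrays and on 1 of 4 CON arrays, and with normexp its difference was -0.0080.

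Synaptic vesicle and release genes gave the longest list. Of 37 on the array 27 were tested, 20 with higher and 7 with lower values in HAY (median 0.22), and none passed limma. SYP, synaptophysin, and SNAP25, a membrane fusion protein, were well above background on all 7 arrays and differed by 0.44 (SE 0.19) and 0.20 (SE 0.29). SYT1, the calcium sensor of vesicle release, was measured on all 7 and was lower in HAY, with a difference of -1.05 (SE 0.37, adjusted p = 0.300). With normexp the SYT1 difference was -0.54, and SNAP25 differed by 0.0081 without CON calf 14. SYN1, synapsin, was not well above background on any array.

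A pattern of detection like that of SYNPR was seen in 2 further vesicle genes. SV2C, a vesicle glycoprotein, was well above background on the 3 HAY arrays and on no CON array. With the background correction of the scanner software, its signal was at least 2.70-fold higher in HAY. CPLX1, complexin, which clamps vesicle fusion, was also measured on the 3 HAY arrays only, at least 2.65-fold higher with the same correction. Both passed the filter only through the HAY arrays, the group where they are high, so no p is given. They are counted among the 20 genes of this list that were higher in HAY. Each bound sets the HAY mean against the lowest signal counted as above background on the CON arrays, or the probe's own value where higher. With normexp the log2 differences were 0.34 for SV2C and 0.21 for CPLX1, smaller than these bounds, so the bounds depend on the background correction. SYNGR1, synaptogyrin, of a family related to SYNPR, was 0.70 higher (SE 0.18, adjusted p = 0.232) and measured on all 7 arrays, and 0.23 higher with normexp. It did not pass the adjustment.

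Neuropeptides and transmitter enzymes were mostly at background. Of 19 on the array, 13 were well above background on no array, among them VIP, TAC1, CALCA and CHAT, which mark enteric, sensory and cholinergic neurons and are named here after their values were seen. TH, tyrosine hydroxylase of catecholamine synthesis, and NPY, neuropeptide Y, named in the same way, were measured on all 7 arrays. They differed by 0.17 (SE 0.20) and 0.28 (SE 0.17). The TH probe was bright, with a mean of 5.64 in HAY and 5.47 in CON, near KRT5 (5.75 and 5.85). DBH and DDC, further enzymes of the list named in the same way, were well above background on no array and on 1 HAY array. The cell source of the TH signal was not tested. PENK, proenkephalin, was the gene with the smallest p of the 4 tested, with a HAY mean of -2.12 ± 0.42 (SD, n = 3) and a CON mean of -0.76 ± 0.47 (SD, n = 4). Its difference was -1.36 (SE 0.30, limma adjusted p = 0.210), lower in HAY without overlap, and it did not pass. Over the 5 nerve, glia and vesicle lists together, 71 of 121 genes on the array were tested, 49 with higher and 22 with lower values in HAY, and 35 were well above background on no array. None was called by limma, and 15 of the 71 had an unadjusted p under 0.05, 10 higher and 5 lower, where 14% of all genes did. SV2C and CPLX1 are counted among the 10 and among the 49, although they passed the filter only through the HAY arrays. Nothing is therefore read from these counts. The median was 0.20, and 0.058 with normexp, where that of all genes was -0.029. Among the 60 genes well above background on all 7 arrays, 42 were higher and 18 lower, with a median of 0.18.

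**Figure D4:**
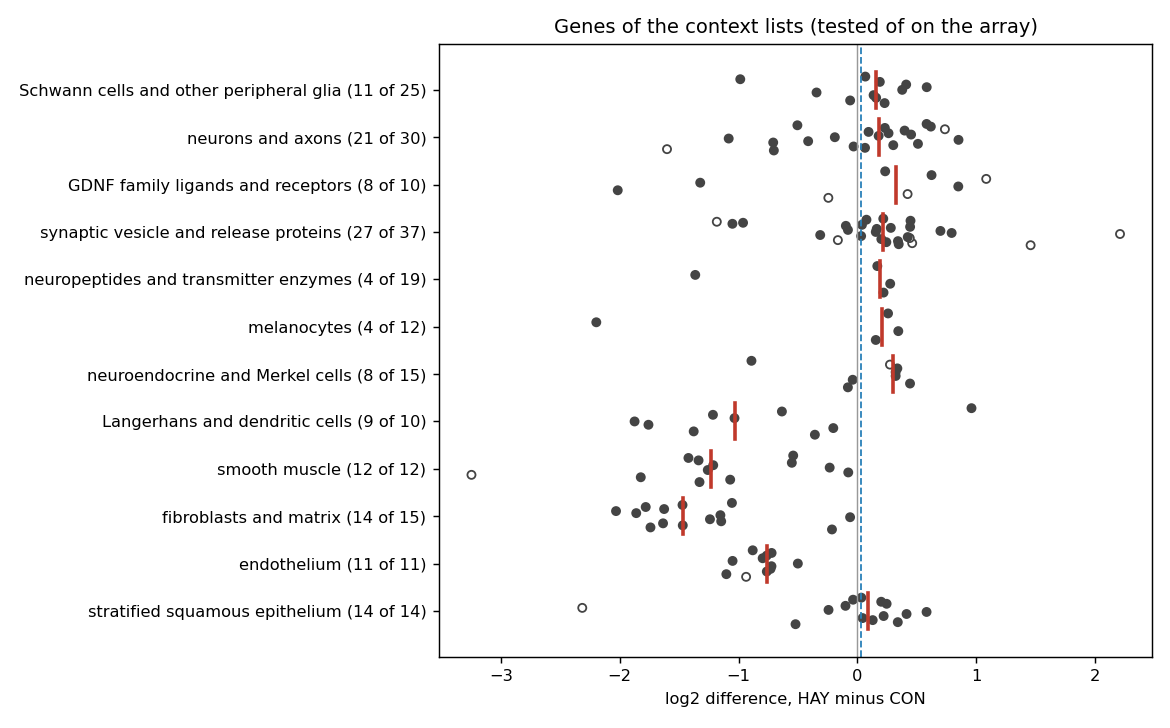
Log2 difference HAY minus CON (horizontal axis) of each tested gene in 12 lists, with the number tested of those on the array. Open points were not well above background on all 7 arrays, red bars are list medians, and the dashed line is the median of all genes (0.03). The first 5 lists, of nerve, glia and vesicle genes, have medians between 0.16 and 0.33, while most dendritic cell genes and all smooth muscle, fibroblast and endothelial genes lie left of 0.

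Several other cell types express single members, and their markers were read beside them. The defining melanocyte markers TYR, DCT and MLANA were not well above background on any array, while PMEL was measured on all 7 and differed by 0.35 (SE 0.26). Of the 4 melanocyte genes tested 3 were higher and 1 lower in HAY, the latter being RAB38 (-2.20, SE 0.32, adjusted p = 0.128), and their summed level, relative to the 75th percentile signal, was 0.376 to 0.455 in HAY and 0.377 to 0.447 in CON. Of the neuroendocrine and Merkel cell list 8 of 15 were tested, 5 higher and 3 lower, with summed levels of 7.79 to 9.87 in HAY and 6.31 to 8.66 in CON. Most of that sum came from INSM1, at a mean log2 signal of 2.83 in HAY and 2.39 in CON. The markers INSM1 and CHGA of this list differed by 0.44 (SE 0.19) and -0.08 (SE 0.17), and CHGB was well above background on 1 HAY array only. RAB38 differed by -1.15 with normexp, PMEL by 0.12 without HAY calf 13 and CHGA by -0.0035 without CON calf 8. None of these genes passed limma.

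Markers of Langerhans and dendritic cells, some of which hold S100B, were lower in HAY for 8 of 9 tested genes. CD207, langerin, differed by -1.03 (SE 0.33, adjusted p = 0.272) and CD1E by -1.88 (SE 0.24, adjusted p = 0.0964). CD74, the invariant chain of class II antigen presentation, CCR7, a homing receptor, and CD1B, a lipid antigen presenter, differed by -1.22, -1.38 and -1.76 (adjusted p = 0.164, 0.256 and 0.301). None of the list passed limma with all 7 calves, and CD74 passed without CON calf 14 (difference -1.38, limma adjusted p = 0.0485). With normexp CD207, CD1E and CCR7 differed by -0.58, -1.18 and -0.73. The summed level of this list was 43.4 to 81.1 in HAY and 18.2 to 56.9 in CON, most of it from LAMP3, named after its values were seen, at a mean log2 signal of 5.99 in HAY and 5.02 in CON. The fat cell markers ADIPOQ and PLIN1 were well above background on 1 CON array and on none. Their 3 tested list members summed to 10.3 to 23.6 in HAY and 10.6 to 102 in CON. Most of that sum came from FABP4, named after its values were seen, at a mean log2 signal of 3.78 in HAY and 5.34 in CON.

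Genes of the connective tissue, in which nerve fibres run, were lower in HAY. All 12 smooth muscle genes tested (median -1.24), all 14 fibroblast and matrix genes (median -1.47) and all 11 endothelial genes (median -0.76) had lower values, and none passed limma over all genes (lowest adjusted p = 0.210, 0.264 and 0.256). Their summed levels were 15.7 to 36.6 in HAY and 36.8 to 86.1 in CON for smooth muscle, 18.4 to 77.0 and 52.2 to 245 for fibroblasts, and 2.57 to 7.99 and 5.82 to 13.3 for endothelium. The measured members had higher means in HAY, UCHL1 by 0.02 only. Because they were chosen with this contrast known, nothing is read from their sign beside these lists. The squamous epithelium list, by contrast, had 9 genes higher and 5 lower in HAY, with a median of 0.087. Its KRT4, a keratin of mucosal epithelia, was well above background on 4 CON arrays and no HAY array. With the background correction of the scanner software, KRT4 was at least 3.63-fold higher in CON. It passed the filter only through CON, so no p is given. With normexp its log2 difference was -0.68, smaller in size than that bound. Within each group the smooth muscle, fibroblast and endothelial sums were all highest in HAY calf 9 and CON calf 8. The squamous sum was lowest in the same calves, at 504 and 408. These are the calves in which, within each group, STMN2 was highest and S100B lowest. In whole tissue, fewer cells of a type and less RNA per cell cannot be told apart. The part of the tissue makeup in the member differences and in their correlations was not tested.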

How the data were processed

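The deposited scanner files hold spot intensity on a linear scale, already background-subtracted and detrended. The software was Agilent Feature Extraction 9.5, as the submitters' processing notes and the deposited headers name it. The authors' whole-series table holds log2 values, deposited relative to the 75th percentile of each array as judged against the scanner values, and served as an alternative. RNA was labelled with cyanine 3 from 500 ng, per the labels' protocols.

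Control spots (536) and outlier spots were left out, log2 values of a probe's spots were averaged, and the 75th percentile of each array was subtracted. Names were updated through RefSeq accessions for 11194 probes (table of ARS-UCD2.0, names only), 3814 kept the name in the file, and the brightest probe stood for a gene. Probes called above background on 3 or more of the 7 arrays were tested with limma 3.58.1 in R 4.3.3 (HAY against CON, Benjamini-Hochberg, 0.05), checked on simulated data. Correlations used deviations from group means and exact permutation within groups. SOX10, not well above background on any array, was left out of them. Each calf is 1 animal, and the number of arrays limits the precision.

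The members and the 14 context lists were chosen with earlier results of these data known. The text names all members, the 2 most similar genes per measured member, and in each list defining markers and up to 3 further genes of smallest unadjusted p under 0.05. Some genes under this rule are not reported here. For smooth muscle, fibroblast, endothelial and fat cell lists counts replace most names. Alternatives were other background correction, scaling, filters, the slide column as a block, and leaving out each calf.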

Additional observations from a re-analysis of the deposited data

Results flagged for a closer look

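Among the 4 CON calves, SYNGR1 had 1 calf far from the others: CON calf 8 stood at -6.01 log2 units and the other 3 between -5.65 and -5.58. Its gap to the nearest calf was 0.8293 of the whole range, just above the critical value of Dixon's test for 4 samples. Of 42 genes examined in this way 1 was picked out, and chance picks out about 1 group in 20.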

How the results depend on the processing

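Across 16 alternatives 4 or 5 of the tested members had a higher mean in HAY, and no gene of the 5 nerve, glia and vesicle lists passed limma in any. UCHL1 had a difference of -0.11 with normexp, and between -0.040 and 0.13 when each calf was left out, below 0 if that calf was HAY 9, CON 11 or CON 14. The sign also turned for GFRAL (-0.0080 with normexp). With each calf left out, TP63 ranged from -0.18 to 0.24 (below 0 without HAY 9 or CON 14), MBP from -0.26 to 0.93 and KRT5 from -0.18 to 0.021, the last 2 turning without HAY 13. The count of genes past the threshold, 1, was 4 with quantile normalization, 2 with a block for slide column (CON calf 8 stood alone in its column), and between 1 and 21 when each calf was left out: 21 without CON 14, 7 without HAY 9, 4 without CON 8 and 2 without HAY 13. Positive pairs of members numbered 4 of 10, 2 of 6 where SYNPR was dropped by asking for detection on all 7 arrays, and between 4 and 5 when each calf was left out. For the 3 pairs described singly the lowest adjusted p over the alternatives was 0.139. The cause of these changes was not tested. Dim signal limits STMN2, UCHL1, GFRA3, SYNPR, SV2C and CPLX1. No paired analysis was possible because calf numbers are not shared between the groups.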
